A study of Mus musculus with 24 samples.

Results

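Type I interferon response genes are the genes that cells switch on when interferon alpha or beta reaches them. A set of 36 of them, chosen by name from the well-known members of the response, was read from all 47729 gene identifiers measured in microglia of single mouse retinas. All 36 had a row in the files. The cells were sorted as CD11b+, Ly6c- and Fcrls+, and each retina gave 1 library from few cells. Mice of the inbred DBA/2J strain acquire glaucoma as they age, and the study set their microglia against those of a control strain and of a younger age. The 12-month DBA/2J group had 10 retinas of 5 animals with the genotype Gpnmb-/- Tyrp1b-/-, each graded mild (3 retinas), moderate (4) or severe (3). The 12-month control, here called Gpnmb+, was the strain DBA/2J Gpnmb+ with the genotype Gpnmb+/+ Tyrp1b-/-, with 9 retinas of 5 animals. The 6-month group, labelled as early disease, had 5 retinas of 5 DBA/2J animals with the genotype Gpnmb-/- Tyrp1b-/-. All groups therefore carried Tyrp1b-/-, none was treated, and the 12-month groups differed in Gpnmb. The right eye is written OD and the left eye OS.

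Interferon alpha and beta bind a receptor made of Ifnar1 and Ifnar2, which activates the kinases Jak1 and Tyk2. Stat2 is phosphorylated and joins Irf9 in the complex ISGF3, which binds interferon-stimulated response elements in promoters. The induced genes encode sensors of viral nucleic acid, proteins that block viral entry, copying or translation, the ubiquitin-like modifier Isg15, and factors such as Irf7 that amplify the response. In nervous tissue, microglia are known to make and to answer type I interferon, and an interferon-responsive microglial state is described in ageing and neurodegeneration.

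The promoters of 4 members are shown because they carry the element through which these genes are known to be switched on, and because Ifit3 and Ifit3b, neighbouring copies with nearly the same promoter, differed in the data below. Each stretch holds the 250 bases before the start site, read 5' to 3' on the strand of the gene, from RefSeq on the build GRCm38.p6. Capitals mark matches to the core of the element, GAAANNGAAA, on either strand.
Isg15, chr4:156200819-156201068, minus strand: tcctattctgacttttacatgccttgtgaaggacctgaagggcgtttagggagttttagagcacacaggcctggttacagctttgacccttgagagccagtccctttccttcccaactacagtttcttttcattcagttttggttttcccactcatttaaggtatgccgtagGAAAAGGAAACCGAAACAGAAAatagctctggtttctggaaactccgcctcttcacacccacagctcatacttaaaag
Ifit1, chr19:34640639-34640888, plus strand: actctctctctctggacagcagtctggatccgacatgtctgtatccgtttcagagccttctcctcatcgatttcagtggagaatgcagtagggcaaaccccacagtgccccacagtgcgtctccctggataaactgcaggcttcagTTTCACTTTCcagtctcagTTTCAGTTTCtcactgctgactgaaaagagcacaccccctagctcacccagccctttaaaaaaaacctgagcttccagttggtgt
Ifit3, chr19:34583279-34583528, plus strand: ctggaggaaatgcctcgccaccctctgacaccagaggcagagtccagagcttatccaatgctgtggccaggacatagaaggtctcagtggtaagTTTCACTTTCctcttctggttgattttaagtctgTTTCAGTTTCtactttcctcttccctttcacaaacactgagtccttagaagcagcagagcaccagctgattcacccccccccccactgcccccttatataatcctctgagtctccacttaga
Ifit3b, chr19:34607707-34607956, plus strand: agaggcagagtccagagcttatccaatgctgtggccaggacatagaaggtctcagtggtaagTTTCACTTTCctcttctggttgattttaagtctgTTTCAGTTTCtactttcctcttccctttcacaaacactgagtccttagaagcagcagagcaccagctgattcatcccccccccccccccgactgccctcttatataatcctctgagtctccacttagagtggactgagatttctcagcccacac
Isg15 held 3 overlapping matches, the first beginning 78 bases before its start site. Ifit1, Ifit3 and Ifit3b held 2 each, read on the opposite strand. The Ifit3 and Ifit3b stretches shared an unbroken run of 169 bases that includes both matches. Of the 36 members, 27 had a promoter in the RefSeq table, counted from 250 bases before to 50 after the start. The core was present in 14 of the 27 (51.9%), against 3.99% of all 27025 symbols in the table. Overlapping matches were counted, and the match is a description of letters, not of binding. Oas2, Usp18, Mx1, Ifi27l2a, Rtp4, Zbp1, Parp9, Parp14 and Ifi204 had no entry.

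The libraries differed in depth, with totals of 977886 to 20081114 counts and 3469 to 16716 genes detected. All 12 microglial markers were detected in every group, and their summed level was 16036 to 44161 CPM (each library's counts scaled to the same total) per retina. Of 10 monocyte markers, 6 had a count in 12-month DBA/2J, 7 at 6 months and 9 in Gpnmb+, with Chil3 at 0 in every group and Ly6c2 at 0 in both DBA/2J groups. Their summed level had a median of 44.1 CPM (2.44 to 143) in 12-month DBA/2J, 27 CPM (14.2 to 52.5) at 6 months and 12.1 CPM (0.382 to 50.8) in Gpnmb+, and their part in the results was not tested. Fcrls, the sorting marker, had a count in 8 of 10 retinas of 12-month DBA/2J, in 5 of 9 of Gpnmb+ and in 5 of 5 at 6 months. Gpnmb itself had a count in 1 of 9 Gpnmb+ retinas and in none of the DBA/2J retinas, and Tyrp1 in none of the 24, so that these transcripts do not separate the groups. In bulk libraries such as these, fewer cells that express a gene and less of its RNA per cell cannot be told apart.

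Most members were measured at low and uneven levels. No member had a count in all 24 retinas, 16 had one in at least 20, and 8 had one in fewer than 12. The number of members detected per retina ran from 5 in Gpnmb+ animal 2 OD, the shallowest library with 977886 counts, to 34 in 12-month DBA/2J animal 2 OS and in 6-month animals 1 OD and 5 OS. Between genes, levels are compared in TPM (the authors' values, which correct for depth and length). The highest median TPM over the 24 retinas was 106 for Ifitm3, which blocks fusion of viral membranes, with a range of 0 to 343. Ifi27l2a, which encodes a small hydrophobic membrane protein, followed at 100.2 (0 to 561), then Ifi35 at 81.4 (0 to 182) and Irf9, the DNA-binding subunit of ISGF3, at 48.4 (0 to 158). Isg15 had a median of only 3.19 TPM, and 8 members had a median of 0. The ranges of these members overlapped, so their order is not resolved by the spread between retinas.

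Members also varied more than other genes in the DBA/2J retinas. Their median coefficient of variation between retinas was 112% in the 12-month DBA/2J group, against 94.3% over all 12977 genes tested. At 6 months it was 76.3% against 57.9%, and in Gpnmb+ it was 124% for both. The members tested had a count in a median of 18 retinas, against 21 for all genes tested.

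**Figure D1:**
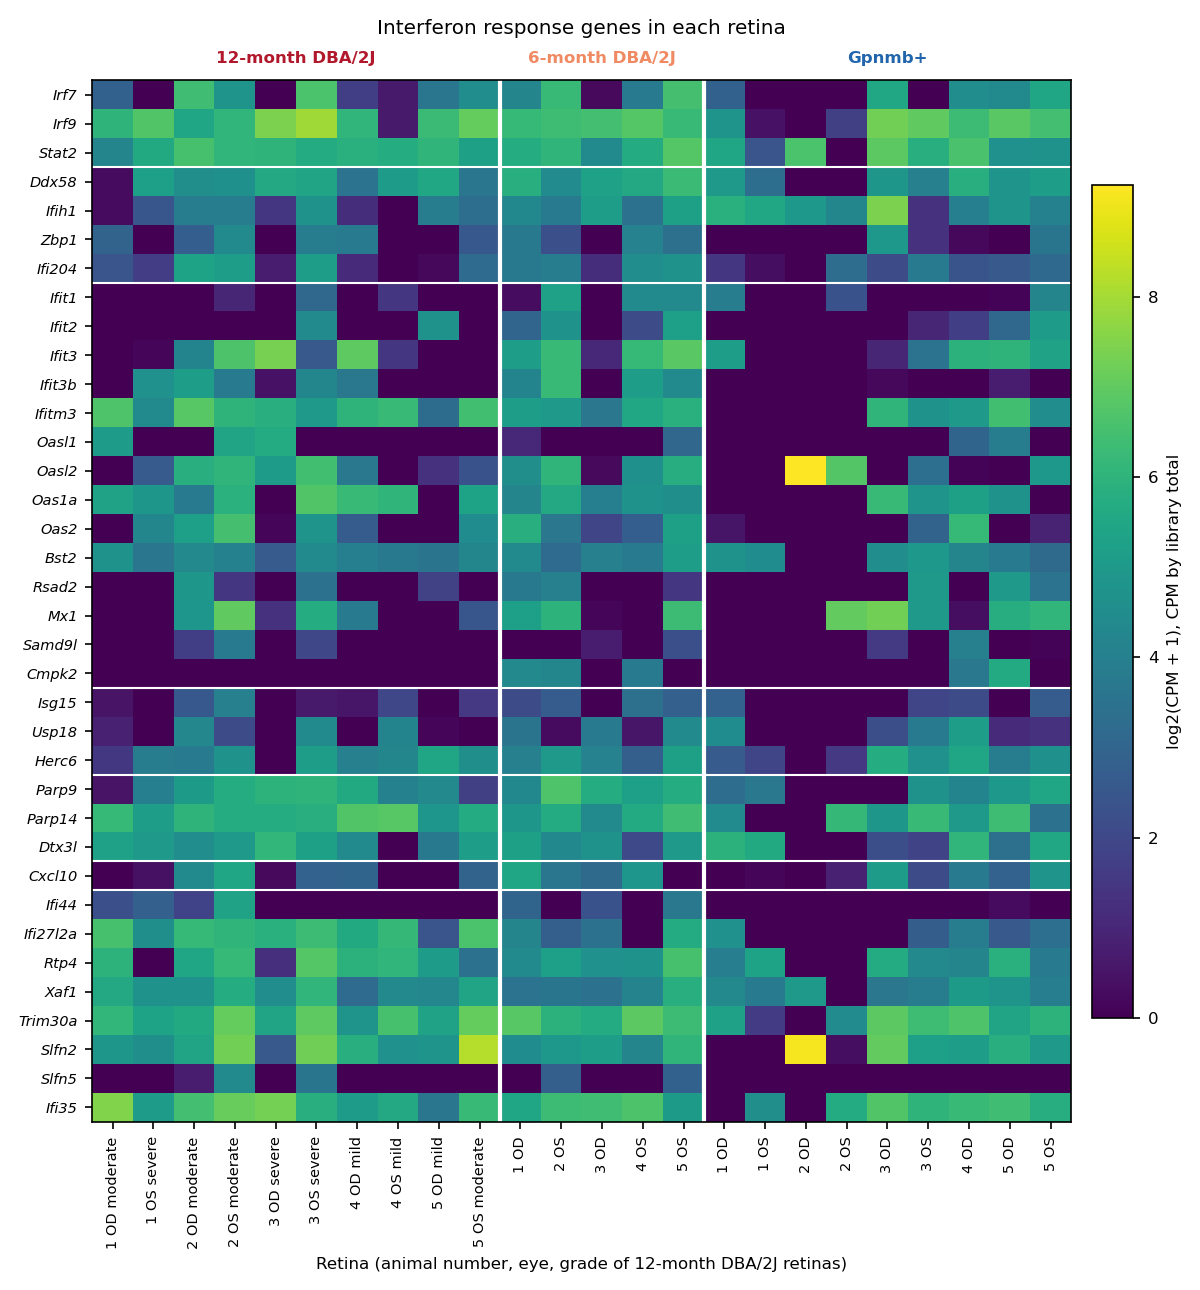
Levels of the 36 members (rows, grouped by role) in the 24 retinas (columns, by group, animal and eye), as log2(CPM + 1) with CPM by library total. Dark cells are counts of 0: Cmpk2 is dark in all 10 retinas of 12-month DBA/2J, Slfn5 in all 9 Gpnmb+ retinas, and most members are dark in Gpnmb+ animal 2 OD, where 5 were detected.

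At 12 months, no interferon gene passed the test between DBA/2J and Gpnmb+ microglia, and the few with the smallest p lay in both directions. Ifi27l2a stood above the highest Gpnmb+ value in each of the 5 DBA/2J animals. Ifit3b and Ifi44 were present in some DBA/2J animals and nearly absent from Gpnmb+ ones, while Cmpk2 and Ifih1 were lower. No member passed the threshold, an adjusted p of 0.05 in edgeR's quasi-likelihood test over 15 animals, and neither did any other gene (0% of 12977). The smallest adjusted p of a member was 0.555. With DESeq2, 2 members passed, Ifit3b and Cmpk2, which had passed the filter on low counts only through groups where they were high.

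Of the 36 members, 35 passed the filter on low counts in that fit. The exception was Slfn5, with 551 counts in 5 retinas. Fold changes were positive for 23 of the 35 (65.7%), against 52.5% of all genes tested. The median log2 fold change was 0.48, against 0.05 for all genes. It was 0.29 without DBA/2J animal 2, 0.30 without DBA/2J animal 3 and 0.13 without the retinas that had fewer than 10000 genes detected. At an unadjusted p under 0.05, 3 members were higher (background 2.76% of all genes) and 2 were lower (background 2.45%). The values of the animals did not overlap between the groups for 1 higher member, Ifi27l2a (background 0.832%), and for no lower member (background 0.285%). The counts cover only what the filter let through.

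**Figure D2:**
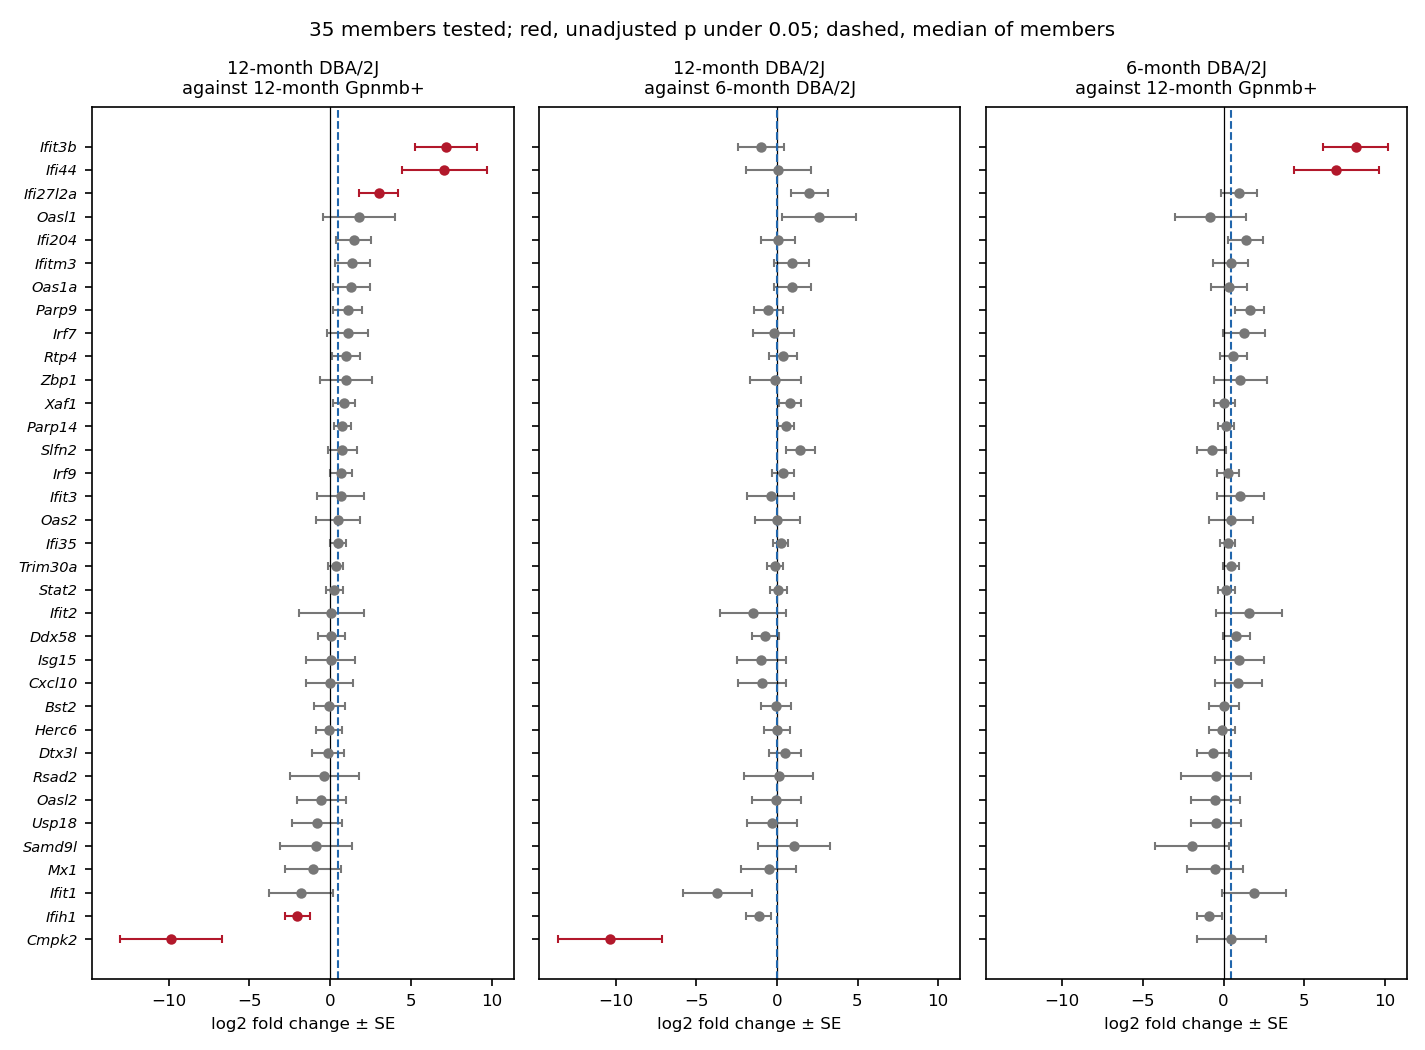
Log2 fold change ± SE of the 35 members tested (rows) in the 3 comparisons of groups, from edgeR. Red points have an unadjusted p under 0.05, and the dashed line is the median of the members: 0.48 against Gpnmb+, 0.03 between 12 and 6 months, and 0.45 at 6 months against Gpnmb+.

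Ifi27l2a lies at chr12:103442167-103443680 on the minus strand of GRCm38. Summed over the eyes of each animal, it was at 51.6, 77.8, 73.8, 57.4 and 53.2 CPM in the 12-month DBA/2J animals. In Gpnmb+ it was at 15.2, 0, 3.32, 13.8 and 6.89 CPM, and in the 6-month animals at 15.8, 5.76, 9.35, 0 and 46.4 CPM. Every 12-month DBA/2J animal stood above every animal of the other groups. The means were 62.8 ± 12.2 CPM (SD, n = 5) in 12-month DBA/2J and 7.83 ± 6.56 CPM (SD, n = 5) in Gpnmb+. The log2 fold change was 3.00 ± 1.19 (SE), with an unadjusted p of 0.0214 by edgeR's quasi-likelihood test. Single retinas did overlap: the 10 DBA/2J retinas ran from 4.4 CPM in animal 5 OD, the lowest, to 97.8 CPM in the other eye of the same animal. Of these, 8 were at 48.7 CPM or more and so above every Gpnmb+ retina, the highest of which was at 24.4 CPM.

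Ifit3b encodes a copy of Ifit3, a protein that supports Ifit1 in binding foreign RNA, and lies at chr19:34607970-34613401 on the plus strand. It was at 17.2, 30.5, 12.1, 10.2 and 0 CPM in the 12-month DBA/2J animals. In Gpnmb+ it had 10 counts in all, 1 in animal 3 and 9 in animal 5. At 6 months it was at 15.4, 70.4, 0, 34.6 and 18.1 CPM. The DBA/2J groups were high except for 1 animal each, and the Gpnmb+ group was at or near 0. The log2 fold change at 12 months was 7.20 ± 1.92 (SE), with an adjusted p of 0.555 by edgeR and of 0.00237 by DESeq2.

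The division of reads between Ifit3 and Ifit3b is uncertain. Of the 50-base words in Ifit3 transcripts, 51.2% also occur in Ifit3b, and 45% of those in Ifit3b occur in other genes, mostly Ifit3. Ifit3 itself was at 0.0763, 50.6, 61.3, 104.5 and 0 CPM in 12-month DBA/2J and at 21.9, 0, 6.71, 59.2 and 48.4 CPM in Gpnmb+. Its fold change was 0.67 ± 1.46 on the log2 scale, within its error. Summed over both genes, the level was 57.3 ± 47.5 CPM (SD, n = 5) in 12-month DBA/2J, 84.1 ± 58.6 at 6 months and 27.3 ± 25.8 in Gpnmb+, with overlapping animals. Ifit3b made up 24.4%, 32.9% and 0.262% of these sums.

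**Figure D3:**
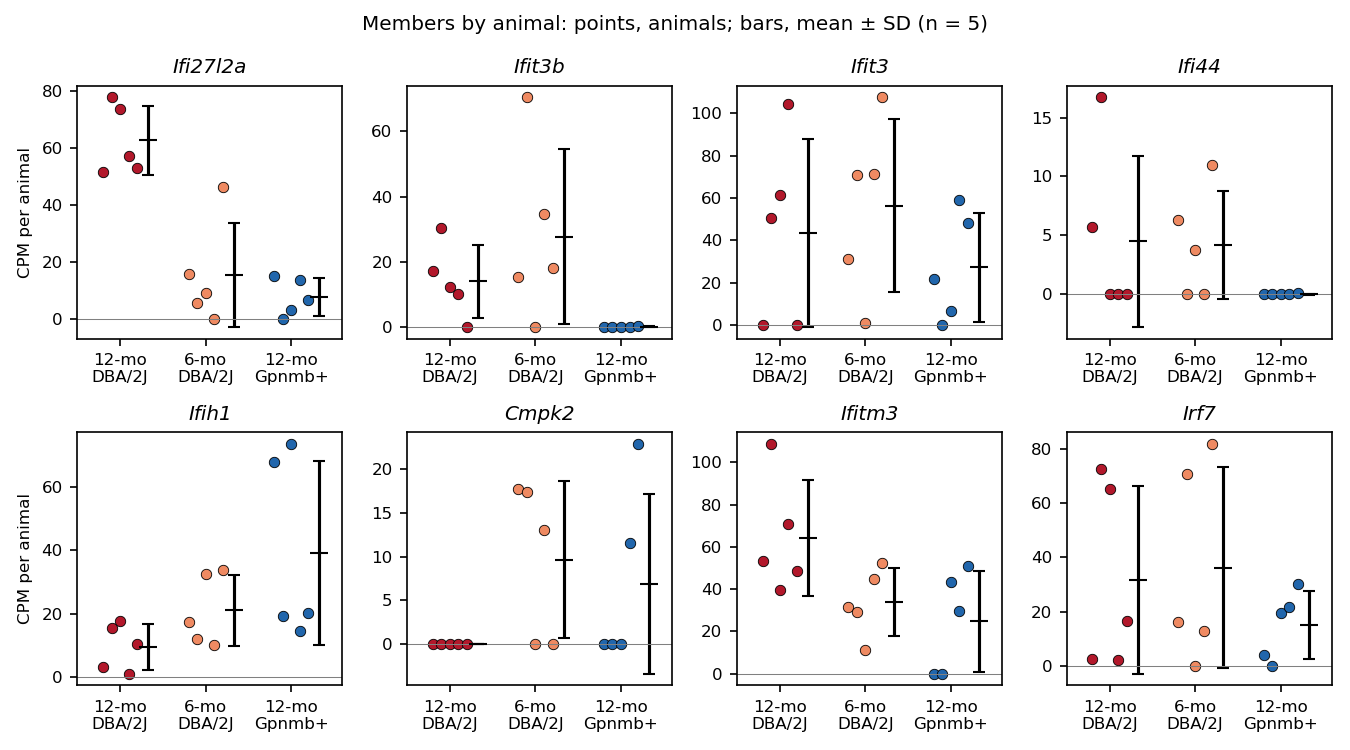
CPM per animal (points; eyes summed) of 8 members in the 3 groups, with mean ± SD (n = 5) beside them. Ifi27l2a separates the 12-month DBA/2J animals (51.6 to 77.8 CPM) from all others, Ifit3b and Ifi44 are near 0 in Gpnmb+, and Cmpk2 is at 0 in every 12-month DBA/2J animal.

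Ifi44, a cytoplasmic protein induced by interferon, lies at chr3:151730922-151749960 on the minus strand. It was at 5.72 and 16.7 CPM in 12-month DBA/2J animals 1 and 2 and at 0 in the other three. In Gpnmb+ it had 3 counts in 1 retina of 9. At 6 months it was at 6.26, 3.74 and 10.9 CPM in animals 1, 3 and 5 and at 0 in animals 2 and 4. The 12-month mean therefore rests on 2 animals, and 52.5% of the gene's summed CPM over all retinas came from animal 2 OS, at 39.5 CPM. The log2 fold change was 7.08 ± 2.65 (SE), with an unadjusted p of 0.0155 by edgeR. The p was 0.0678 without retinas under 10000 genes, and with a filter of 50 counts the gene was not tested. That size depends on the few Gpnmb+ counts: pooled over retinas, 352 counts against 3 gave a ratio of CPM of 93.6, with an exact 95% interval of 31.8 to 455.9 that covers counting error only. Among the other induced genes of mixed or less known function, Rtp4, Xaf1, Slfn2, Ifi35 and Trim30a had log2 fold changes of 0.34 to 1.00, each with an SE at least 0.48. All 7 tested members of that group, Ifi27l2a and Ifi44 included, were positive.

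Cmpk2 is a mitochondrial nucleotide kinase whose gene lies next to Rsad2, at chr12:26469204-26479837 on the plus strand. It had no count in any of the 10 retinas of 12-month DBA/2J. In Gpnmb+ it had 863 counts, in animal 4 OD (11.9 CPM) and animal 5 OD (49.6 CPM) alone. In the 6-month animals it had 764 counts, in animals 1 (17.7 CPM), 2 (17.4 CPM) and 4 (13.1 CPM). Against a floor of 3 counts over the 10 retinas, pooled levels in 12-month DBA/2J were at least 361-fold lower than in Gpnmb+ and at least 341-fold lower than at 6 months. The bounds cover counting error only, and 7 of the 9 Gpnmb+ retinas were at 0 too. By edgeR the unadjusted p was 0.00742 against Gpnmb+ and 0.00616 against 6 months. Cmpk2 had passed the filter only through animals of those groups, so its direction is not independent of the filter.

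Rsad2 encodes viperin, an enzyme that makes a chain-terminating nucleotide from the product of Cmpk2. Its levels followed those of its neighbour only in part. Rsad2 was at 0, 21.6, 6.87, 0 and 1.06 CPM in 12-month DBA/2J, and at 18.5 and 19.2 CPM in Gpnmb+ animals 3 and 5 with 0 in the rest. At 6 months it had 213, 215 and 32 counts in animals 1, 2 and 5 and 0 in the rest. Both genes had counts in Gpnmb+ animal 5 and in 6-month animals 1 and 2. The remaining animals had only Rsad2, only Cmpk2 or neither. The log2 fold change of Rsad2 at 12 months against Gpnmb+ was -0.36 ± 2.15.

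The 14 antiviral effectors tested, Ifit3b and Cmpk2 among them, were divided in direction, with 7 positive and 7 negative and a median log2 fold change of 0.02. Ifitm3 was at 53.3, 109, 39.5, 70.6 and 48.7 CPM in 12-month DBA/2J. In Gpnmb+ it was at 0 in animals 1 and 2 and at 43.4, 29.6 and 51.0 CPM in animals 3, 4 and 5. Its log2 fold change was 1.37 ± 1.10 (SE), and the animals of the 2 groups overlapped. Both Gpnmb+ animals without Ifitm3 had fewer than 10000 genes detected in each retina, and the part of this was not tested. Oas1a and Oas2, which make the messenger that activates RNase L, had log2 fold changes of 1.31 ± 1.14 and 0.49 ± 1.38. For Oas1a, 57.6% of its 50-base words occur in Oas1g, so its counts may include reads of that gene. Mx1, a GTPase that traps viral nucleocapsids, was at -1.05 ± 1.73, Ifit1 at -1.81 ± 1.99 and Bst2, which tethers virions to the membrane, at -0.04 ± 0.94. Ifit2, Oasl1, Oasl2 and Samd9l were at 0.08 ± 2.00, 1.79 ± 2.24, -0.54 ± 1.53 and -0.86 ± 2.22, so that none of them exceeded its error.

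Among the sensors, Ifih1 (MDA5, a sensor of long double-stranded RNA, at chr2:62595798-62646255 on the minus strand) went the other way. It was at 3.28, 15.6, 17.5, 1.08 and 10.5 CPM in 12-month DBA/2J and at 68.0, 19.4, 73.6, 14.5 and 20.2 CPM in Gpnmb+. The means were 9.60 ± 7.28 and 39.1 ± 29.0 CPM (SD, n = 5 each), and the groups overlapped at 14.5 to 17.5 CPM. The log2 fold change was -2.02 ± 0.80, with an unadjusted p of 0.0213 by edgeR. The highest retina, Gpnmb+ animal 3 OD at 171 CPM, held 29.6% of the gene's summed CPM. Without the 5 Gpnmb+ retinas that had fewer than 10000 genes detected, that one included, the log2 fold change was -0.32, with an unadjusted p of 0.739. Ddx58 (RIG-I), Zbp1 and Ifi204, sensors of other viral nucleic acids, had log2 fold changes of 0.07 ± 0.83, 0.96 ± 1.62 and 1.45 ± 1.07.

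The transcription factors of the response were positive, each within its error. Irf7 was at 2.44, 72.6, 65.3, 2.03 and 16.4 CPM in 12-month DBA/2J and at 4.00, 0, 19.5, 21.6 and 30.2 CPM in Gpnmb+. Animals 2 and 3 of 12-month DBA/2J were high and animals 1 and 4 low, so the groups overlapped throughout. Log2 fold changes were 1.07 ± 1.29 for Irf7, 0.68 ± 0.69 for Irf9 and 0.26 ± 0.52 for Stat2. The Isg15 system was near 0 as a group: Isg15 at 0.03 ± 1.5, its conjugating ligase Herc6 at -0.05 ± 0.81 and Usp18, which removes Isg15 and restrains the receptor, at -0.82 ± 1.56. Parp14, Parp9 and its partner Dtx3l, which attach ADP-ribose or ubiquitin, were at 0.76 ± 0.50, 1.10 ± 0.90 and -0.13 ± 1.00. Parp9 and Dtx3l overlap on opposite strands, and whether counting used strand is not given in the sources used here. Cxcl10, the chemokine that draws T cells, was at -0.02 ± 1.45.

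Between 12 and 6 months within DBA/2J, the members' median was near 0, with a sign that turned on single animals. Ifi27l2a was higher at 12 months and Cmpk2 lower. The median log2 fold change was 0.03, against 0.01 for all genes, and 18 of 35 members were positive. Leaving out 1 animal gave medians from -0.54 (without 12-month animal 2) to 0.30 (without 6-month animal 5), of which 4 of 10 were negative. No member passed the threshold in edgeR's test (background 0%), nor in DESeq2 among those given an adjusted p. Cmpk2 was given none by DESeq2, where its unadjusted p was 6.55e-18 at a log2 fold change of -23.3. That fold change was fitted to a 12-month group without a count. At an unadjusted p under 0.05, none was higher (background 2.1%) and 1 was lower, Cmpk2 (background 1.55%). The animals did not overlap for 1 higher member, Ifi27l2a (background 1.43%), and for no lower one (background 1.02%). Ifi27l2a averaged 15.5 ± 18.2 CPM (SD, n = 5) at 6 months, and the highest animal there, 5 at 46.4 CPM, lay just under the lowest 12-month animal at 51.6 CPM. Its log2 fold change was 2.02 ± 1.14, with an unadjusted p of 0.0942 by edgeR. The next member by p was Ifit1, at 0.211, 36.0, 0, 19.9 and 18.5 CPM at 6 months and at 0, 0.362, 4.92, 0.407 and 0 CPM at 12 months, with a log2 fold change of -3.69 ± 2.14.

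In some of the 6-month animals, Ifit3b and Ifi44 stood above Gpnmb+, where they were nearly absent. Ifit3b was at 0 in animal 3 and Ifi44 in animals 2 and 4. This comparison has the Gpnmb+ animals in common with the first one, and ages differ as well as Gpnmb, so the values stand side by side and are not independent. Ifit3b had a log2 fold change of 8.19 ± 1.99 at 6 months and 7.20 ± 1.92 at 12 months, and Ifi44 of 6.99 ± 2.64 and 7.08 ± 2.65. No member passed the threshold in edgeR's test (background 0%), and 1 did in DESeq2, Ifit3b. At an unadjusted p under 0.05, these 2 were higher (background 2.2%) and none lower (background 1.57%). Both had passed the filter only through DBA/2J animals. No member separated the animals upward (background 0.878%) or downward (background 0.239%). The median log2 fold change was 0.45, against 0.03 for all genes, with 25 of 35 positive. It was 0.15 and 0.20 without Gpnmb+ animals 1 and 2, 0.74 and 0.72 without Gpnmb+ animals 3 and 4, and 0.29 and 0.22 without 6-month animals 2 and 5. Slfn5, a member of the Schlafen family that the filter removed, had no count in the 9 Gpnmb+ retinas. Its pooled level was at least 94.4-fold higher in 12-month DBA/2J (355 counts) and at least 69.7-fold higher at 6 months (196 counts), each resting on 2 animals.

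Across the grades of the DBA/2J retinas, Irf9 was the member with the smallest p. In these fits the eyes of an animal were summed when they had the same grade, which gave 2 mild, 3 moderate and 2 severe sums. DBA/2J animals 1 and 5 entered with 2 sums each, which share an animal but were treated as independent. Irf9 was at 57.3 and 73.9 CPM in the mild sums, at 73.1, 56.9 and 127 CPM in the moderate ones and at 114 and 222 CPM in the severe ones. The severe sums were above both mild ones, and the moderate sums overlapped both of these grades. Irf9 was picked by its p in this same trend, so the order of its sums is no separate support. The trend was 0.67 ± 0.30 on the log2 scale per grade, with an unadjusted p of 0.0445 and an adjusted p of 1.00 by edgeR. It was 0.39 with an unadjusted p of 0.376 without animal 3, whose severe eyes were at 173 and 241 CPM. The Gpnmb+ animals, at 1.69 to 139 CPM, spanned most of this range.

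Across the trend, 34 members were tested, 24 were positive, and the median was 0.38, against 0.01 for all genes. That median was 0.92, 0.61 and 0.24 without animals 1, 4 and 5. None passed the threshold in edgeR's test (background 0%) or in DESeq2. Irf9 was the single higher member at an unadjusted p under 0.05 (background 1.13%), and none was lower (background 0.717%).

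**Figure D4:**
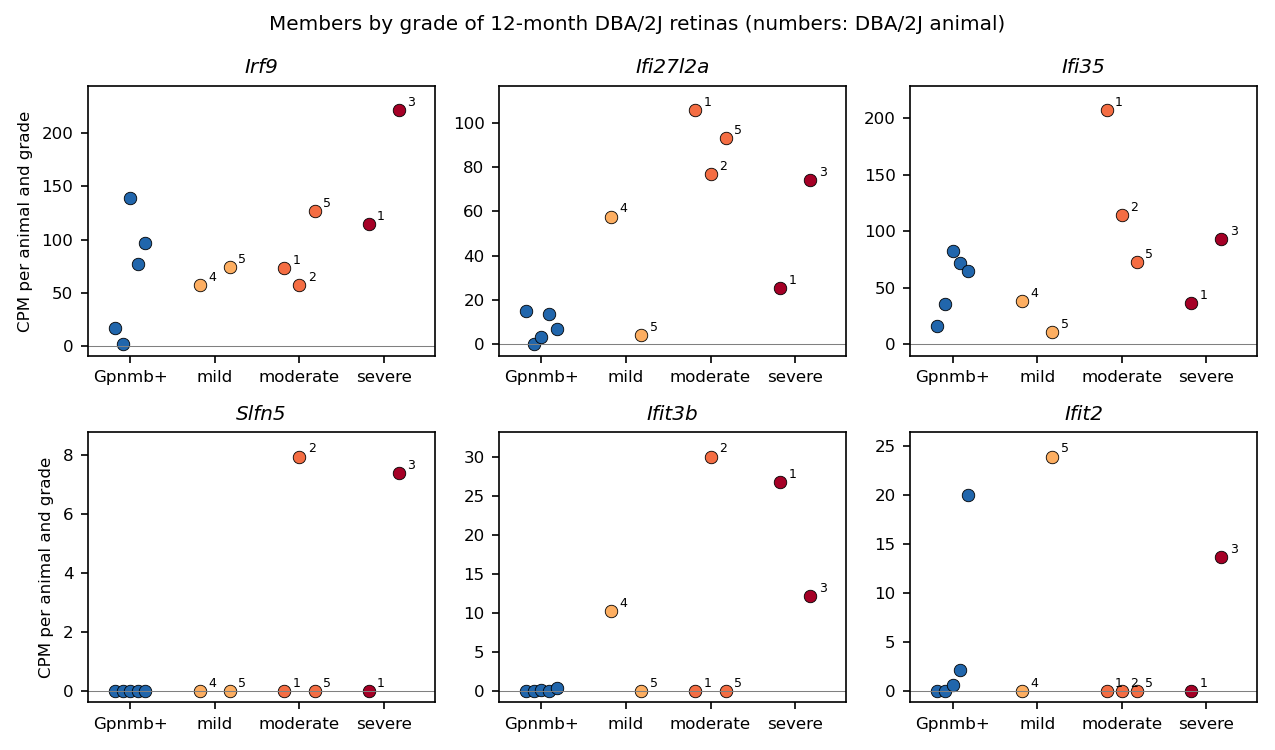
CPM per animal and grade of 6 members in Gpnmb+ animals and in mild, moderate and severe 12-month DBA/2J retinas, with the animal number beside each DBA/2J point. Irf9 is highest in the severe sum of animal 3 (222 CPM), and Slfn5 is above 0 in 1 moderate and 1 severe sum only.

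Set against Gpnmb+, each grade had its own median. Mild retinas had a median log2 fold change of -0.45 over the 36 members (all genes -0.11). For moderate retinas it was 0.58 (all genes -0.02) and for severe retinas 0.31 (all genes -0.06). Each rests on single animals: the mild median was -1.64 without animal 4 and -0.67 without animal 5, the moderate one -0.30 without animal 2 and the severe one -0.83 without animal 3 and 0.73 without animal 1. The severe median was also 0.04 and 0.09 without Gpnmb+ animals 1 and 2, and -0.05 without retinas under 10000 genes. Differences between these medians were not tested. No member passed the threshold in edgeR's test at any grade (background 0% each), nor in DESeq2. In mild retinas 1 member was higher at an unadjusted p under 0.05, Ifit3b (background 2.67%), and none was lower (background 2.75%). Moderate retinas had 4 higher, Ifit3b, Ifi44, Ifi27l2a and Slfn5 (background 4.75%), and 2 lower, Ifit2 and Cmpk2 (background 3.71%). Severe retinas had 3 higher, Ifit3b, Slfn5 and Ifi44 (background 3.08%), and none lower (background 1.2%).

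Several of these rest on 1 animal. Ifit3b had no count left in the mild retinas without animal 4 or in the moderate ones without animal 2. Ifi44 had none left in the severe retinas without animal 1, and Slfn5 none in the moderate retinas without animal 2 or in the severe ones without animal 3. Ifi27l2a was at 106, 77.0 and 92.9 CPM in the moderate sums, at 25.5 and 74.1 CPM in the severe and at 57.6 and 4.13 CPM in the mild ones. The lowest moderate sum, 77.0 CPM, was close to the highest severe one, 74.1 CPM, and the order of the grades was not tested. The fold change of Ifi27l2a for moderate retinas stayed between 3.25 and 3.94 on the log2 scale whichever animal was left out.

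Marker sums of several cell types varied among the moderate retinas and in part overlapped those of the other grades. The 8 markers of border macrophages summed to 410, 264, 0 and 139 CPM in the moderate retinas (animals 1 OD, 2 OD, 2 OS and 5 OS), to 0 to 52.1 CPM in the mild and to 16.4 to 65.1 CPM in the severe ones. Cd209f was at 0 in every group. The 14 rod markers summed to 6145, 2817, 294 and 3849 CPM in the same 4 moderate retinas, to 401 to 804 CPM in the mild and to 738 to 1834 CPM in the severe ones. For the 10 monocyte markers the moderate sums were 72.2, 29, 49 and 143 CPM, against 9.51 to 48.3 CPM in mild and 2.44 to 57.1 CPM in severe retinas. For the 12 microglial markers they were 22374, 29301, 39178 and 25029 CPM, against 23484 to 42925 CPM in mild and 41065 to 44161 CPM in severe retinas. Of 7 monocyte markers tested in moderate retinas against Gpnmb+, 4 were positive and 1, Ms4a4c, was higher at an unadjusted p under 0.05. Of 7 border macrophage markers tested, 6 were positive and 2, Ms4a7 and F13a1, were higher at that level. Of 14 rod markers, 13 were positive and 0 were higher at that level. Of 12 microglial markers, 3 were lower and 2 higher at that level. Over all genes, 47.6% were positive, 4.75% were higher and 3.71% lower. Ifi27l2a was at 92.9, 72.7, 65.1 and 97.8 CPM in these retinas. The part of these cells in the moderate values of the members, Ifi27l2a included, was not tested.

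In a few single retinas many members were high together. In 12-month DBA/2J animal 2 OS, a moderate retina, 30 of the 35 tested members (85.7%) were above their median over the 24 retinas, against 41.6% of all genes in that retina. It held the highest value of 5 of the 35, against 3.33% of all genes. Among them were Isg15 at 15.5 CPM, Cxcl10 at 43.2 CPM, Oas2 at 89.9 CPM and Ifi44 at 39.5 CPM. The retina was among the top 3 for 14 of the 35, against 11.4% of all genes. In animal 3 OS, a severe retina, 26 members (74.3%) were above their median, against 62% of all genes. It was the highest for 5 of the 35, against 1.55% of all genes. These were Irf7 at 98.4 CPM, Irf9 at 241 CPM, Oas1a at 107 CPM, Rtp4 at 111 CPM and Xaf1 at 67.9 CPM. In 6-month animal 5 OS, 30 members (85.7%) were above their median, against 74.7% of all genes. It was among the top 3 for 12 of the 35, against 8.59% of all genes. The summed level of the 36 members was 1747, 1711 and 1547 CPM in these retinas, the 3 highest of 24.

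**Figure D5:**
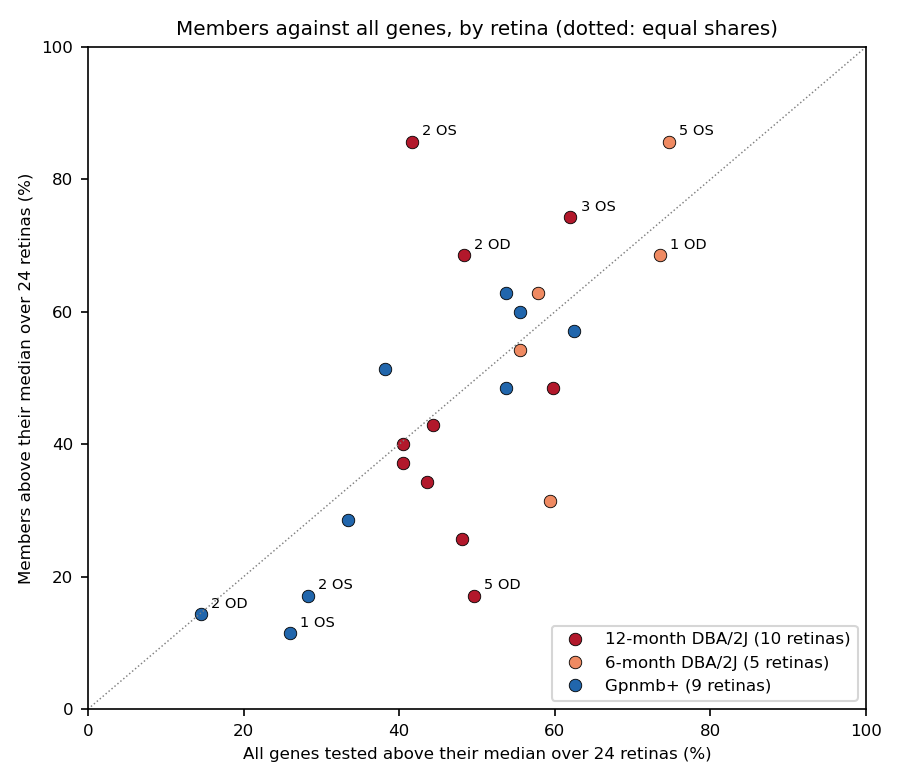
Share of the 35 tested members above their median over 24 retinas (vertical axis, %) against the same share of all genes tested (horizontal axis, %), 1 point per retina. DBA/2J animal 2 OS lies farthest above the dotted line of equal shares, at 85.7% against 41.6%, while 6-month animal 5 OS, at 85.7%, also had 74.7% of all genes above their median.

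In 6-month animal 5 OS, which had 16716 genes detected, the most of all retinas, the shares of members and of all genes above their median were both high. The median log2 ratio of its members to their medians over the retinas (1 CPM added) was 1.47, against 0.427 for all genes. In 12-month DBA/2J animal 2 OS, with 11011 genes detected and 6203795 counts, the share of all genes was not high. These ratios were 1.20 and 0 there. That retina had 0 counts of border macrophage and of neutrophil markers, 294 CPM of rod markers, 49 CPM of monocyte markers (median of all retinas 28.1) and 419 CPM of Müller cell and astrocyte markers (median 354). Their part was not tested. On TMM-scaled totals, the counts of members above their median in the 3 retinas were 30, 27 and 30. The retinas were singled out after their values were seen, and the shares carry no test.

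The fellow eyes of the 12-month retinas were lower, and each 6-month animal gave 1 eye. In 12-month DBA/2J animal 2, OS exceeded OD for 22 members and OD exceeded OS for 11 (41.2% and 49.9% of all genes), and the summed levels were 1747 and 1153 CPM. The OD retina also had 24 of 35 members above their median (68.6%), against 48.3% of all genes. In 12-month DBA/2J animal 3, OS exceeded OD for 26 members and OD exceeded OS for 7 (59.5% and 35.9% of all genes), at 1711 and 1068 CPM, and both eyes were graded severe. In 12-month DBA/2J animal 5, the moderate OS was at 1173 CPM and the mild OD at 502 CPM. In 12-month DBA/2J animal 1, the moderate OD was at 902 CPM and the severe OS at 552 CPM, so that the higher grade had the lower sum. In Gpnmb+, summed levels ran from 222 CPM in animal 1 OS to 1421 CPM in animal 3 OD. The second highest there, animal 2 OD at 1323 CPM, came from 5 members, with Oasl2 at 609.5 CPM and Slfn2 at 554 CPM making up most of it in the library of 977886 counts. That library also had the highest rod markers, at 21795 CPM.

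The ligands of the pathway were almost absent. None of the 18 type I interferon genes had a count in the 10 retinas of 12-month DBA/2J, and Ifnb1 and all Ifna genes were at 0 in all 24 retinas. Ifnz had 5 counts in 1 Gpnmb+ retina, and Ifne, Ifnk and Ifnz had 11, 1 and 2 counts in single 6-month retinas. The limit that a count of 0 allows, 3 counts, was 0.149 to 3.07 CPM per retina. The receptor was well expressed: Ifnar2 averaged 406 ± 94.3 CPM in 12-month DBA/2J and 301 ± 75.6 in Gpnmb+ (SD, n = 5), and Ifnar1 117 ± 27.6 and 83.0 ± 11.4 CPM. Log2 fold changes were 0.43 ± 0.22 and 0.49 ± 0.32, with unadjusted p of 0.0695 and 0.141 by edgeR.

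Of the 13 receptor and signalling genes tested at 12 months, none was higher at an unadjusted p under 0.05 and 1 was lower, the receptor kinase Tyk2 (2.45% of all genes were lower). It was at 46, 58.1, 50.6, 23.2 and 59.0 CPM in 12-month DBA/2J and at 69.0, 195, 96.4, 132 and 65.6 CPM in Gpnmb+, without overlap, which held downward for 0.285% of all genes. Its log2 fold change was -1.24 ± 0.47, with an adjusted p of 0.696 by edgeR. Of the 19 sensing and induction genes tested, none reached that level, and Irf3, the factor that starts interferon synthesis, was at 0.10 ± 0.44.

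Of 56 further interferon-stimulated genes tested, 34 were positive, with a median of 0.30, 4 were higher at an unadjusted p under 0.05 and none was lower. Over all genes, 52.5% were positive with a median of 0.05, 2.76% were higher and 2.45% lower. Oas1b, a relative of Oas1a, was at 4.12, 9.53, 1.19, 0.949 and 5.34 CPM in 12-month DBA/2J and at 0.182 and 0.181 CPM in Gpnmb+ animals 1 and 3 with 0 in the rest. The groups did not overlap, and the adjusted p was 0.575 by edgeR. Shisa5 averaged 221 ± 24.2 and 105 ± 56.3 CPM (SD, n = 5), also without overlap (0.832% of all genes were apart upward), and Ly6e 773 ± 167 and 517 ± 161 CPM. The fourth, Ifi208, averaged 1.04 ± 2.21 and 0.0273 ± 0.0611 CPM. Of 22 genes of the type II interferon and antigen presentation list tested, 3 were higher at an unadjusted p under 0.05, against 2.76% of all genes. These were B2m, the light chain of class I molecules, at 0.76 ± 0.18 on the log2 scale, and the immunoproteasome subunits Psmb8 at 0.86 ± 0.26 and Psmb10 at 1.26 ± 0.44. Their adjusted p were 0.368, 0.574 and 0.582 by edgeR, and between 12 and 6 months in DBA/2J their log2 fold changes were 0.80 ± 0.18, 0.58 ± 0.26 and 1.07 ± 0.44.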

How the data were processed

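Sorted microglia of 24 retinas (15 animals) were profiled by RNA-seq. Per the submitters' processing notes, the authors used mm10, Salmon 1.4.0, R 4.0.3 and DESeq2 1.30.1, and they deposited estimated counts and TPM per gene. Whether counting used strand is not given in the sources used here. A further table of the authors' FPKM values was not used, since its 24 columns could not be tied to samples. Expected counts were rounded, the eyes of an animal summed, and genes filtered at a minimum count of 10. The sums were fitted with edgeR 4.0.16 (TMM scaling, quasi-likelihood test, Benjamini-Hochberg adjustment) in R 4.3.3, with DESeq2 1.42.0 as an alternative. The threshold was an adjusted p of 0.05. Samples were grouped by the labels. Any member could be named, up to 5 per role in full by smallest p, and of every other list up to 4 genes by smallest p, plus Ifnar1, Ifnar2, Ifnb1 and Irf3. A gene of the fixed rule is not reported here. Animal numbers did not pair samples: 0 of 15 same-number correlations exceeded 0.1. The 3-count floor covers counting error only. The test was checked on simulated data with changes set only in genes at higher levels, so the check does not cover members at few counts. Members and lists were chosen with earlier results of these data known.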

Additional observations from a re-analysis of the deposited data

Results flagged for a closer look

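Sets of values within groups were examined: each member over 5 animals, and the summed level of the members over the retinas. Of 111 sets, 15 (13.5%) had 1 animal far from the other 4. The rule's nominal rate of about 1 in 20 sets is for normally distributed values. These values have a floor at 0, many are 0 and the sets share animals, so that rate is no measure for them. In each flagged set the animal that stood apart was the highest. Among the 12-month DBA/2J animals these were animal 2 for Isg15 (9.41 CPM), Oas2 (60.1 CPM) and Cxcl10 (30.9 CPM), and animal 3 for Irf9 (221 CPM) and Ifit1 (4.92 CPM). Among the 6-month animals it was animal 5 for Rtp4 (84.4 CPM), Xaf1 (49.3 CPM), Oasl1 (6.66 CPM) and Samd9l (3.43 CPM). In Gpnmb+ it was animal 2 for Oasl2 (200 CPM), animal 4 for Oas2 (70.9 CPM) and Samd9l (14.9 CPM), and animal 5 for Ifit2 (20 CPM), Ifit3b (0.297 CPM) and Ifi44 (0.0989 CPM). The last pair rest on 9 and 3 counts.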

How the results depend on the processing

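With DESeq2, 2 members passed the threshold at 12 months against Gpnmb+ and 1 at 6 months. Between ages, DESeq2 gave Cmpk2 no adjusted p. By edgeR, 0 members passed in every comparison. Counts at an unadjusted p under 0.05 moved by over 1.5 times as follows. At 12 months against Gpnmb+, 5 became 2 with the compared groups alone. There the filter left 29 members and removed Ifit3b, Ifi44 and Cmpk2. The count was 3 with the animal number as a replicate block (Ifi44 p 0.125 by edgeR), and 5 to 7 leaving out 1 animal. Between ages, 1 became 3 with the groups alone and 4 without retinas under 10000 genes, and 1 to 3 leaving out 1 animal (3 without 6-month animal 5, 2 without 12-month animal 3). At 6 months against Gpnmb+, 2 became 0 with the groups alone, where the filter removed Ifit3b and Ifi44. The count was 1 without retinas under 10000 genes or with a filter of 50 counts. It was 2 to 4 leaving out 1 animal (4 without Gpnmb+ animal 4). For mild retinas, 1 became 4 with DESeq2, 5 without a filter and 3 without retinas under 10000 genes, and 1 to 2 leaving out 1 animal (2 without animal 4 or 5). For moderate retinas it was 4 to 7 and for severe 2 to 4 leaving out 1 animal; severe gave 6 without a filter and 1 with 50 counts. The trend's 1 became 3 with DESeq2, 0 with RLE scaling, without a filter or without retinas under 20% of the median total, and 0 to 2 leaving out 1 animal (2 without animal 1, 0 without animal 2 or 4). Leaving out 1 animal turned the sign of the members' median to -0.54 between ages, -0.30 in moderate and -0.83 in severe retinas, and of some log2 fold changes. Ifi27l2a ran from -0.0224 (without 6-month animal 5) to 1.36 at 6 months, from -0.93 (without animal 4) to 2.85 in mild and from -0.26 (without animal 5) to 0.79 per grade. Ifit3b ran from -3.54 (without animal 4) to 7.53 in mild and from -3.46 (without animal 2) to 8.51 in moderate, and Ifi44 from -2.07 (without animal 1) to 8.55 in severe; the negative Ifit3b and Ifi44 values are fits to a grade left with no count. The cause of the other changes was not tested. A grade left with 1 sum is assumed to vary like the others. Leaving out Gpnmb+ animals in the grade comparisons was added after seeing the data. Depth limits members at few counts, most of all in the 5 retinas under 10000 genes.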
